A study of Homo sapiens with 6 samples.

Results

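The E2F, DP and RB gene families were examined after knockdown of PNO1 in HCT116, an established line of human colorectal cancer cells. PNO1 is a nucleolar protein required for the maturation of the small ribosomal subunit. The members are 6 E2F genes (E2F1, E2F2, E2F3, E2F4, E2F7 and E2F8), the dimerisation partner gene TFDP1 and the 3 pocket protein genes RB1, RBL1 and RBL2. They were chosen by gene symbol: every probe set of the array whose single annotated symbol is one of these names was taken, which gave 28 probe sets of 49293 tested, and 10 genes of 18132. Cells carried a lentivirus encoding a control short hairpin RNA (sh-Ctrl, 3 samples) or a PNO1 short hairpin RNA (sh-PNO1, 3 samples). RNA was taken at 72 h and read on Affymetrix expression arrays, 1 for each sample. Both groups therefore share the cell line, the lentiviral transduction and the expression of a hairpin. The labels name one PNO1 hairpin and no rescue, so loss of PNO1 and other effects of that hairpin cannot be told apart. They do not say whether replicates were separate cultures, so the spread behind the p-values may be technical only, and 3 arrays a group limit the precision.

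E2F proteins are transcription factors that bind the promoters of genes needed for S phase, mostly as dimers with a DP protein such as the product of TFDP1. The pocket proteins RB1, p107 (RBL1) and p130 (RBL2) bind E2Fs and repress those promoters until cyclin-dependent kinases phosphorylate them. E2F1, E2F2 and E2F3 are the activators, E2F4 acts mainly as a repressor with p107 and p130, and E2F7 and E2F8 are atypical repressors that bind DNA without a DP partner. Several E2F genes are themselves known E2F targets, so the family takes part in its own cell cycle control. In quiescent cells p130, E2F4 and DP join the MuvB core in the DREAM repressor complex, and MuvB later serves MYBL2 and FOXM1 at mitotic genes.

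PNO1 was first measured as a check of the labels. Its brightest probe set, 11729185_at, read 535, 535 and 532 intensity units on the sh-Ctrl arrays and 105, 108 and 105 on the sh-PNO1 arrays. The log2 fold change, sh-PNO1 minus sh-Ctrl throughout, was −2.33 ± 0.04 (SE, n = 3 per group), a level 80.2% lower, with a limma adjusted p of 3.32e-07. The other PNO1 probe sets gave −1.80 and −1.78. An exact two-sided permutation test gave p = 0.1, the smallest that 3 against 3 arrays allow. The median intensity was 25.6 to 25.9 on every array. The log2 excess of the 3' over the 5' ACTB control probe set, a measure of RNA integrity, was 2.25 on the sh-PNO1 replicate 2 array and 1.73 to 1.87 on the other 5. For GAPDH the sh-Ctrl arrays gave −0.03 to −0.01 and the sh-PNO1 arrays −0.08 to −0.06. The epithelial genes EPCAM, KRT8 and KRT18 were bright (98.5th, 98.5th and 99.0th percentile of genes), whereas VIL1, an intestinal brush border gene, lay at the 4.4th percentile. The summed intensity of 8 epithelial genes was 9105 to 9514 on the sh-Ctrl arrays and 9825 to 10176 on the sh-PNO1 arrays. These genes did not rise together. KRT19 rose most (means 2329 and 3000), and KRT8 and CDH1 were also higher. EPCAM (1998 and 1908), KRT18 (2469 and 2412), CLDN7, VIL1 and CDX1 were lower in sh-PNO1. The sum of 4 leukocyte genes was 62.3 to 63.7 and 63.2 to 67.3, that of 4 fibroblast genes 48.4 to 52.5 and 47.8 to 50.9, and that of 3 endothelial genes 62.0 to 66.5 and 67.6 to 68.9. The part of these values in the results below was not tested.

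Start sites of the members were compared first, because E2F genes can be bound by E2F proteins. RefSeq promoter windows on GRCh38.p14 (250 bases before to 50 bases after a start) were matched by symbol for 9 of the 10 members; E2F8 was not matched. The letters searched, on both strands, were the E2F site forms TTTCCCGC, TTTCGCGC, TTTGCCGC and TTTGGCGC. The 100 bases before the start are shown for 3 E2F genes that fell (E2F2, E2F3, E2F7). They are also shown for 2 genes that did not pass the test and hold 2 matches each (E2F1, RBL1). All run 5′ to 3′ in the direction of the gene, with the E2F letters of either strand in capitals. The stretches are chr1:23531234-23531333 on the minus strand, chr6:20401779-20401878 on the plus strand, and chr12:77065570-77065669, chr20:33686386-33686485 and chr20:37095998-37096097 on the minus strand.
E2F2: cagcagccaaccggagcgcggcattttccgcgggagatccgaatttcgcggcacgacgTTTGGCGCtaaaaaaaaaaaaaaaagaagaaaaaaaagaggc
E2F3: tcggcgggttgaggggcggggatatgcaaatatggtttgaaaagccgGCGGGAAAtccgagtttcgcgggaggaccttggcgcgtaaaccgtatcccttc
E2F7: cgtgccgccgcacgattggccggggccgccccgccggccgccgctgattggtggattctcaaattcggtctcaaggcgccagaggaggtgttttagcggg
E2F1: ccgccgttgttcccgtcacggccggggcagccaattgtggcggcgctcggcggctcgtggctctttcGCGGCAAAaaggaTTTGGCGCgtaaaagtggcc
RBL1: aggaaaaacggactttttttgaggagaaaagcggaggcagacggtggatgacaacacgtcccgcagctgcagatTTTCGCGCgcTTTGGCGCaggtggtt

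E2F letters were found in the windows of 5 of 9 members (55.6%), against 3.99% of 27305 genes with a RefSeq window outside chr8. Those 27305 genes were not limited to genes on the array, and they are the background of every motif share below. E2F1 held TTTGCCGC on the reverse strand at −33 to −26 from the start and TTTGGCGC at −20 to −13. E2F2 held TTTGGCGC at −42 to −35, and E2F3 held TTTCCCGC on the reverse strand at −53 to −46. Another E2F3 window, whose start site lies 1735 bases inside the gene, held none of the letters searched. RBL1 held TTTCGCGC at −26 to −19 and TTTGGCGC at −16 to −9, and TFDP1 held TTTCGCGC on the reverse strand at −120 to −113. These letters were in no window of E2F4, E2F7 or RBL2. The start site of the only RB1 window lies 172699 bases inside the gene, so that window does not cover the main promoter. RB1 is still counted among the 9 members. The letters of the cell cycle homology region, the element that MuvB contacts, are TTTGAA or TTCGAA. They occurred in E2F3 (−65 to −60) and RBL2 (24 to 29), and in 19.5% of all genes. A match is a run of letters and not a measured binding site, and both members with a fall and members without one held matches.

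**Figure D1:**
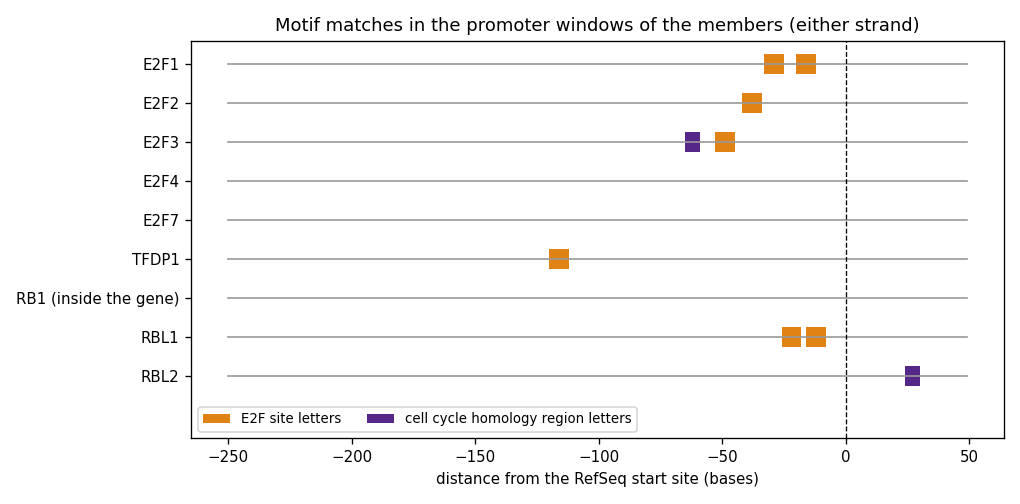
Matches to the E2F site letters (orange) and to the cell cycle homology region letters (purple) in the RefSeq promoter windows of 9 members, by distance in bases from the start site (dashed line). E2F matches lie in the windows of E2F1, E2F2, E2F3, TFDP1 and RBL1, all within 120 bases before the start.

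The activator genes E2F2 and E2F3 were lower after PNO1 knockdown, and E2F1 did not pass the test. E2F2 fell by 22.5% on its brighter probe set and E2F3 by 16.9% to 31.6% on its 3 probe sets. The E2F1 probe set, 11723713_at, read 45.4, 41.5 and 38.8 in sh-Ctrl and 36.2, 40.8 and 39.3 in sh-PNO1. The groups overlapped: sh-Ctrl replicate 1 was the highest array and sh-PNO1 replicate 1 the lowest. Its log2 fold change was −0.11 ± 0.07 (95% interval −0.28 to 0.06), with a limma adjusted p of 0.307. The interval includes 0 and also a fall as large as that of the brightest E2F3 probe set.

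E2F2 probe set 11724079_s_at read 109.5, 107.9 and 108 in sh-Ctrl and 83.8, 87.5 and 81.0 in sh-PNO1. Every sh-PNO1 array lay below every sh-Ctrl array, and the log2 fold change was −0.37 ± 0.05 (limma adjusted p 0.000647). The dimmer E2F2 probe set 11724078_at read 28.6, 31.5 and 31.9 against 26.6, 27.0 and 27.0. The groups were again apart, and the log2 fold change was −0.19 ± 0.05 (limma adjusted p 0.0326). The fall at 11724079_s_at passed with any 1 array left out (adjusted p 0.00191 to 0.00496). That at 11724078_at passed without sh-Ctrl replicate 1 (0.013) but not without any other array (0.0747 to 0.106).

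E2F3 has 3 probe sets, all of the suffix that marks probes shared by several transcripts. The brightest, 11742800_s_at, read 278, 274 and 282 in sh-Ctrl and 231, 235 and 226 in sh-PNO1, a log2 fold change of −0.27 ± 0.04 (limma adjusted p 0.00207). At 11754266_s_at the arrays read 232, 228 and 236 against 189, 189 and 184, a change of −0.31 ± 0.04 (limma adjusted p 0.000976). Every sh-PNO1 array was below every sh-Ctrl array at both. At 11752100_s_at the sh-Ctrl arrays read 184, 155 and 161, more widely spread than at the other E2F3 probe sets, and the sh-PNO1 arrays read 113, 108 and 121. This gave −0.55 ± 0.07 (95% interval −0.72 to −0.37, limma adjusted p 0.00104). Each of the 3 passed with any 1 array left out. The 3 fell by different amounts, and that difference between probe sets was not tested.

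**Figure D2:**
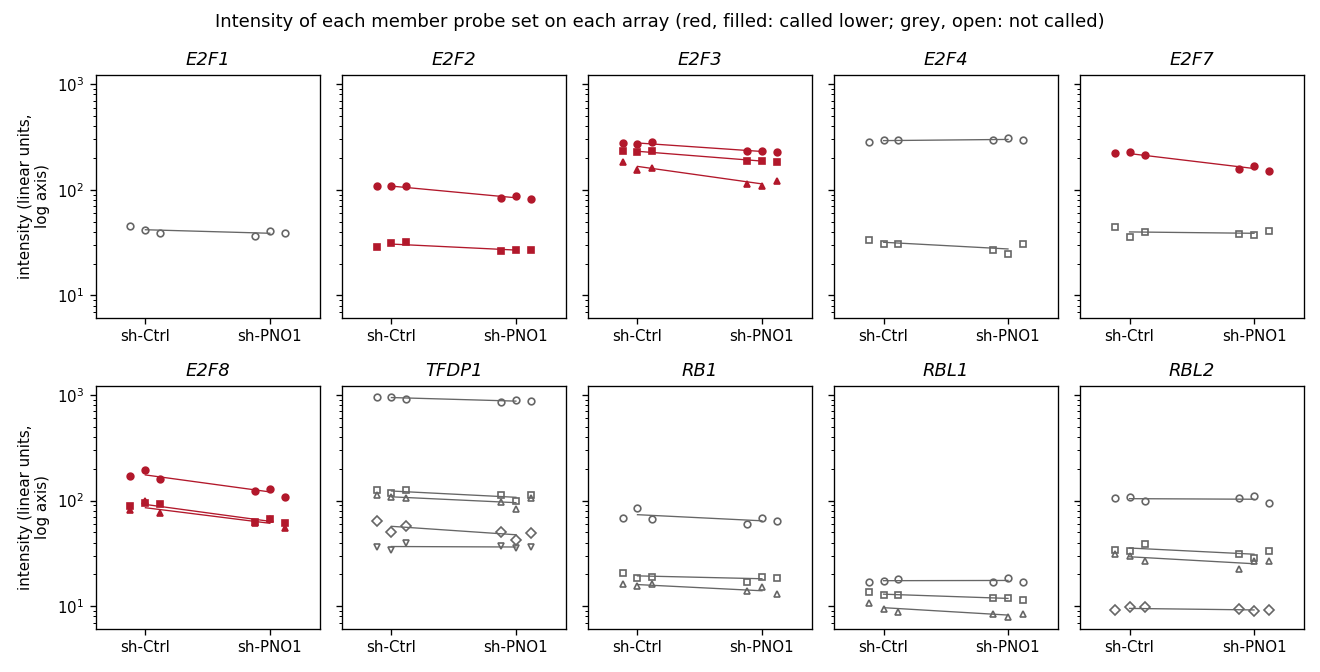
Intensity (linear units on a log axis) of each of the 28 member probe sets on each array, 1 panel a gene, with a line joining the group means. Filled red symbols mark probe sets with an adjusted p under 0.05. All probe sets of E2F2, E2F3 and E2F8 and one of E2F7 are marked, each lower in sh-PNO1.

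The probe sets of E2F4, the main pocket protein partner among the repressors, went in opposite directions and neither passed the test. At 11716215_at the arrays read 286, 295.7 and 295.7 in sh-Ctrl and 298.5, 306 and 295.9 in sh-PNO1. The sh-PNO1 arrays lay just above the sh-Ctrl arrays, and the log2 fold change was 0.04 ± 0.04 (95% interval −0.06 to 0.14, limma adjusted p 0.562). The dimmer 11716216_at read 33.8, 30.9 and 30.9 against 26.8, 24.9 and 30.9, with sh-PNO1 replicate 3 at the level of the sh-Ctrl arrays. Its log2 fold change was −0.22 ± 0.08 (limma adjusted p 0.0915). Without sh-PNO1 replicate 3 it passed at 0.0186, and over the other fits the adjusted p reached 0.253.

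The atypical repressor genes E2F7 and E2F8 were lower at 4 of their 5 probe sets, by 27.8% at one of E2F7 and by 28.6% to 30.9% at the 3 of E2F8. E2F7 probe set 11730029_a_at read 222, 227 and 212 in sh-Ctrl and 158, 169 and 150 in sh-PNO1. No arrays overlapped, and the log2 fold change was −0.47 ± 0.06 (limma adjusted p 0.000557). The second E2F7 probe set, 11730030_a_at, read 44.7, 35.6 and 39.6 against 38.1, 37.7 and 40.5. Those groups overlapped fully, with a log2 fold change of −0.04 ± 0.08 (95% interval −0.23 to 0.15, limma adjusted p 0.778). The 95% interval of the first probe set, −0.60 to −0.34, does not reach that of the second, but the difference between them was not tested.

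E2F8 was lower at all 3 probe sets. At 11728958_x_at, whose suffix marks probes that can match other transcripts, the arrays read 172, 193 and 159.7 in sh-Ctrl and 124, 129.5 and 109 in sh-PNO1. This is a log2 fold change of −0.53 ± 0.09 (limma adjusted p 0.00248). At 11747943_a_at they read 89.0, 94.1 and 93.0 against 63.2, 66.3 and 61.5, a change of −0.53 ± 0.05 with the smallest adjusted p of the 28 probe sets (0.000136). At 11728957_a_at they read 81.4, 99.0 and 76.6 against 61.2, 67.2 and 54.7, a change of −0.49 ± 0.11 (limma adjusted p 0.0111). The groups were apart at all 3, and replicate 2 was the highest array of both groups each time. All 3 passed with any 1 array left out, although 11728957_a_at only at 0.0498 without sh-PNO1 replicate 1.

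TFDP1, which encodes the DP1 partner of E2F1 to E2F4, did not pass at any of its 5 probe sets. Its brightest probe set, 11725349_s_at, read 962, 966 and 913 in sh-Ctrl and 859.9, 894 and 875 in sh-PNO1. The groups were apart, but the difference was −0.11 ± 0.04 (95% interval −0.22 to −0.01, limma adjusted p 0.107). The groups were also apart at 11725348_x_at (126, 117 and 127 against 112, 98.7 and 112, log2 fold change −0.20 ± 0.06, limma adjusted p 0.0524). The same held at 11748055_x_at (63.5, 50.5 and 57.3 against 50.2, 42.8 and 49.5, −0.26 ± 0.09, limma adjusted p 0.0749). At 11725347_a_at, sh-PNO1 replicate 3 reached the sh-Ctrl arrays (−0.19 ± 0.08, limma adjusted p 0.136), and 11761840_at gave −0.01 ± 0.06 (limma adjusted p 0.911). The calls of the dimmer TFDP1 probe sets turned on single arrays: 11748055_x_at passed without sh-Ctrl replicate 2 (0.0358) and 11725347_a_at without sh-PNO1 replicate 3 (0.0477). In fits with the replicate number as a block 11725348_x_at (0.0278) and 11748055_x_at (0.0124) passed; over all these fits their adjusted p reached 0.153 and 0.221, and that of 11725347_a_at 0.310. The sh-PNO1 replicate 2 array, which had the largest ACTB 3' excess, was the lowest of its group at the 4 dimmer probe sets, and its part in these values was not tested.

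The pocket protein genes did not pass at any of their 10 probe sets. RB1, the retinoblastoma tumour suppressor that mainly holds the activator E2Fs, read 68.4, 85.2 and 67.2 in sh-Ctrl and 60.3, 68.4 and 64.6 in sh-PNO1 at its brightest probe set, 11717702_a_at. The groups overlapped, sh-Ctrl replicate 2 stood above the other 5 arrays, and the log2 fold change was −0.19 ± 0.10 (95% interval −0.41 to 0.03, limma adjusted p 0.197). At 11749112_a_at the arrays were apart (16.3, 15.4 and 16.4 against 13.8, 15.2 and 13.1), with −0.20 ± 0.06 and a limma adjusted p of 0.0514. That probe set passed without sh-PNO1 replicate 2 (0.0182), and its adjusted p otherwise reached 0.145. The remaining RB1 probe set gave −0.09 ± 0.06.

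RBL1 was dim, at the 24.8th to 41.4th percentile of probe sets. Its brightest probe set, 11740383_at, read 17.1, 17.3 and 17.9 in sh-Ctrl and 17.1, 18.5 and 17.0 in sh-PNO1. Those groups overlapped, with 0.01 ± 0.05 (95% interval −0.11 to 0.12, limma adjusted p 0.939). The other RBL1 probe sets were lower on all 3 sh-PNO1 arrays, with −0.13 ± 0.05 at 11738630_a_at (limma adjusted p 0.0817) and −0.23 ± 0.08 at 11740382_at (limma adjusted p 0.0709). The second of these passed without sh-Ctrl replicate 3 (0.0334), and its adjusted p was above 0.05 in the other fits.

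RBL2, the p130 gene of quiescent cells, read 106, 109 and 98.7 in sh-Ctrl and 105, 110.1 and 94.3 in sh-PNO1 at 11718165_a_at. The groups overlapped fully (−0.02 ± 0.07, 95% interval −0.18 to 0.14, limma adjusted p 0.864). At 11718166_a_at the groups were apart (31.5, 29.9 and 26.8 against 22.6, 26.6 and 26.6), with −0.22 ± 0.08 and a limma adjusted p of 0.0894. At 11747866_a_at the change was −0.19 ± 0.08 (limma adjusted p 0.118), and 0.0363 with the replicate number as a block, against up to 0.309 in the other fits. The fourth RBL2 probe set gave −0.05 ± 0.05.

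**Figure D3:**
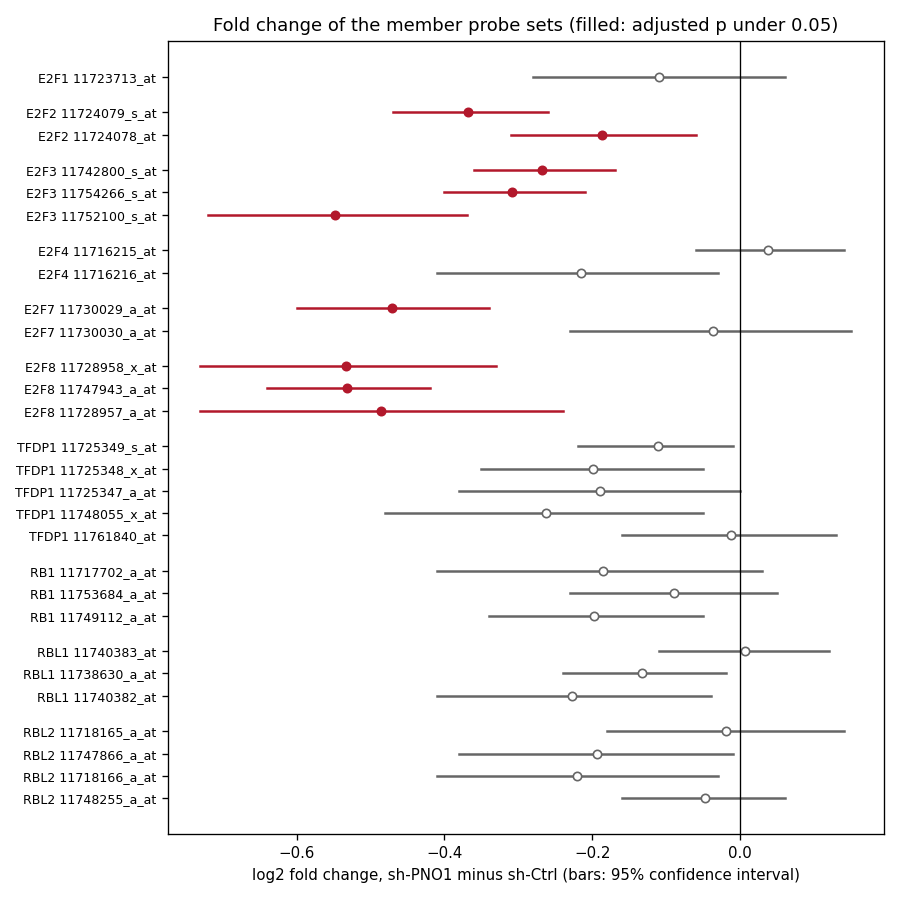
Log2 fold change (sh-PNO1 minus sh-Ctrl) of the 28 member probe sets with 95% confidence intervals, filled where the adjusted p was under 0.05. The 9 filled points, in E2F2, E2F3, E2F7 and E2F8, lie between −0.55 and −0.19, and the highest open point, of E2F4, at 0.04.

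Over the family, 9 of 28 probe sets were called lower at an adjusted p under 0.05 (32.1%), where 13.2% of all 49293 probe sets were called lower. No member probe set was higher at an unadjusted limma p under 0.05 (0 of 28), and the share over all probe sets at that threshold was not counted. With 1 probe set a gene, 0 of 10 members were higher at it, against 4611 of 18132 genes. No member probe set was called higher at an adjusted p under 0.05, where 14.8% of all probe sets were. In either direction the background was 28.0%, so the family's share of calls was near it, and all of its calls were falls. The log2 fold change was negative at 26 of 28 probe sets, and its median was −0.20, against 0.01 over all probe sets. Groups did not overlap, with sh-PNO1 lower, at 16 of 28 probe sets (background 18.3%) and, with sh-PNO1 higher, at 1 (background 21.9%). Among the 19 probe sets not called, 17 were negative, 9 of them at an unadjusted limma p under 0.05. The same shares over all probe sets not called were not counted, so these counts show nothing particular to the family. No member changed 2-fold. With 1 probe set a gene, the brightest, 4 of 10 genes were called lower (E2F2, E2F3, E2F7 and E2F8), against 14.2% of 18132 genes lower, 20.0% higher and 34.1% in either direction. The 28 probe sets are not independent, since those of a gene share its transcripts.

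The choice of probe set mattered more for the count of genes than any array did. When all probe sets of a gene were averaged, 7 genes were called lower, adding TFDP1 (−0.155, limma adjusted p 0.0455), RB1 (−0.158, limma adjusted p 0.0356) and RBL2 (−0.12, limma adjusted p 0.0197). For these genes the adjusted p over all settings ran from 0.0146 to 0.188, from 0.0356 to 0.429 and from 0.0197 to 0.937. The averaged value of E2F4 was −0.089 (limma adjusted p 0.152) and that of RBL1 −0.118 (limma adjusted p 0.0541), both opposite in sign to the brightest probe set. The 23 background probe sets of the array, graded by GC content, averaged 2.53 to 773 units, 20 of them under 100. By mean, the member probe sets lay above 14 of them (RBL1 11740382_at) to all 23 (TFDP1 11725349_s_at). That 0 of 28 exceeded all 23 on every array does not mark them as dim, since the brightest background probe set averaged 773 units. Folds of dim probe sets can be understated, which was not tested here.

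**Figure D4:**
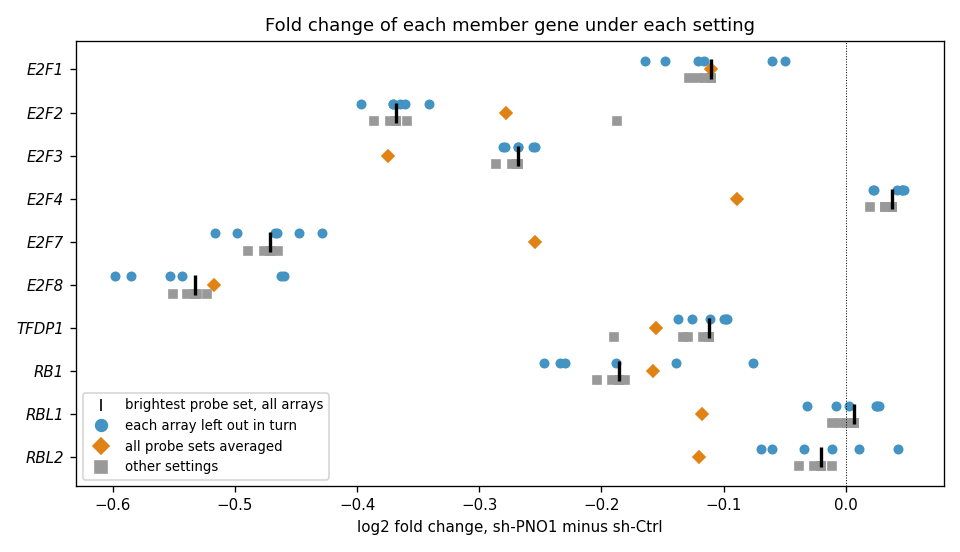
Log2 fold change of each member gene under each setting: the brightest probe set on all arrays (black bar), each array left out in turn (blue), all probe sets averaged (orange) and other settings (grey). E2F2, E2F3, E2F7 and E2F8 lie at −0.187 or lower in every setting, while E2F4, RBL1 and RBL2 change sign between settings.

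The genes most like 2 members in pattern over the 6 arrays were found by the root mean square distance of log2 values centred on the sh-Ctrl mean, among 12691 genes and with 1 probe set a gene, the brightest. Nearest to E2F4, the member with the highest log2 fold change on that scale (0.04, not called), were RPS20 (distance 0.00834), FLVCR2 (0.0108) and RPL38 (0.0115), with limma adjusted p of 0.444, 0.506 and 0.39. Nearest to E2F8, the member with the largest fall among brightest probe sets, were RWDD2A (0.0397, log2 fold change −0.49), RNF4 (0.044, −0.56) and AFAP1L1 (0.0459, −0.48). Those 3 were called lower, with limma adjusted p of 0.00293, 0.00123 and 0.00331.

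The regulators upstream of the pocket proteins moved in both directions. Of 17 genes measured among D and E type cyclins, their kinases and activators, and CDK inhibitors, 9 rose (52.9%) and 6 fell (35.3%), where 20.0% of all genes rose and 14.2% fell. The median log2 fold change was 0.16, against 0.03 over all genes. Among the inhibitors 5 of 6 rose. CDKN1A, the CDK2 inhibitor p21, went from 1438 ± 22.0 to 2851 ± 156 units (SD, n = 3; log2 fold change 0.99 ± 0.05, limma adjusted p 7.38e-06) and rose at both of its probe sets. CDKN2B, an inhibitor of CDK4 and CDK6, went from 17.1 ± 0.741 to 37.2 ± 4.84 (1.11 ± 0.09, limma adjusted p 5.92e-05) and rose at 2 of 3 probe sets. CDKN2A, which encodes p16 and ARF, went the other way, from 606 ± 4.81 to 307 ± 25.1 (−0.99 ± 0.06, limma adjusted p 1.74e-05), at all 3 probe sets.

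Among cyclins and kinases CCND1, the D type cyclin that starts RB1 phosphorylation, fell from 1468 ± 22.9 to 1119 ± 14.4 (−0.39 ± 0.04, limma adjusted p 0.000145) at all 4 probe sets. CCNE2, a CDK2 partner, fell by 0.66 on the log2 scale, CKS1B, a CDK subunit, by 0.36, the phosphatase gene CDC25A by 0.26 and CDK4 by 0.20. CDK6 rose by 0.47 ± 0.04 (limma adjusted p 7.98e-05) at all 4 probe sets. SKP2, a ubiquitin ligase subunit that marks p27 for degradation, rose by 0.65 ± 0.04 (limma adjusted p 2.81e-05) at its brighter probe set, while the other gave −0.12.

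Components of MuvB and its partners gave 2 genes lower and 2 higher of 8 (25% each way, where 14.2% of all genes were lower and 20.0% higher), with a median of −0.06 against 0.03 over all genes. LIN37 rose (0.57 ± 0.06, limma adjusted p 0.000252) and LIN52 fell (−0.38 ± 0.05, limma adjusted p 0.00083), both at each of their 2 probe sets. FOXM1, an activator of mitotic genes, fell by 0.16 (limma adjusted p 0.0135) at 1 of 3 probe sets, and LIN54, the DNA-binding subunit, rose by 0.15 (limma adjusted p 0.0318) at 1 of 6. The split of calls was not stable: leaving out any 1 array other than sh-PNO1 replicate 1 left 1 gene of the list higher, and without _x_at and _s_at probe sets 4 genes were lower and 1 higher. Of 12 corepressors and chromatin partners of E2F and RB, 2 fell and 2 rose (16.7% each way), a share of calls near the 34.1% of all genes. ARID4B, a SIN3 complex subunit, fell by 0.45 at 4 of 5 probe sets and RBBP7, a histone-binding subunit, by 0.42. SIN3B rose by 0.33 at 2 of 6 probe sets and EMD by 0.24.

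Known E2F target genes were lower in large part. Of 50 measured, 41 fell (82%) and 3 rose (6%), with a median log2 fold change of −0.38, where 14.2% of all genes fell and 20.0% rose. This list was chosen with results of these data known and is not independent evidence of its direction. Falls were found in 10 of 12 licensing and helicase genes, 11 of 12 replication fork and polymerase genes, 5 of 5 nucleotide synthesis genes, 5 of 7 G1/S regulators, 4 of 5 repair and checkpoint genes, and 6 of 9 chromatin and transcription genes. MCM2, a subunit of the replicative helicase, went from 309 ± 10.1 to 141 ± 9.37 (−1.13 ± 0.06, limma adjusted p 7.14e-06). MCM10, which helps to activate that helicase, went from 338 ± 9.42 to 147 ± 11.4 (−1.20 ± 0.06). BARD1, the partner of BRCA1, went from 71.0 ± 2.78 to 30.4 ± 2.92 (−1.23 ± 0.07). MSH6 of mismatch repair (−0.85), RPA2 of the single-strand binding complex (−0.73) and CHAF1A of chromatin assembly (−0.70) also fell. The 3 that rose were SKP2, the helicase subunit MCM6 (0.58 ± 0.04, at 2 of 3 probe sets) and CCNE1 (0.23 ± 0.04, at 1 of 2), the last with equal values on all 3 sh-Ctrl arrays. RNA came from whole cultures, so fewer cells in S phase and less target RNA per cell cannot be told apart. The list shares 5 genes with the upstream regulators and none with the members.

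The E2F letters were found in the windows of 22 of 45 target genes with a RefSeq window outside chr8 (48.9%, against 3.99% of all genes). They were in 20 of the 37 that fell and 2 of the 8 that did not. These genes were listed as known E2F targets, so the share with the letters is not independent evidence of binding. The median log2 fold change was −0.37 in genes with the letters and −0.36 in those without, a difference that was not tested. The 6 measured E2F targets of cell death gave 1 rise and 1 fall (16.7% each), again near the 34.1% of all genes called in either direction. BBC3, which encodes the BH3-only protein PUMA, rose by 0.70 ± 0.04 (limma adjusted p 1.02e-05) at both probe sets, and DIABLO, which encodes an antagonist of IAP proteins, fell by 0.65 ± 0.04 (limma adjusted p 1.57e-05).

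Mitotic genes bound by MuvB were lower as well: 20 of 25 fell (80%), against 14.2% of all genes, with a median log2 fold change of −0.32 against 0.03. None was called higher by limma, where 20.0% of all genes were. None was higher at an unadjusted limma p under 0.05 either (0 of 25), against 4611 of 18132 genes. Of these 25, the checkpoint kinase gene BUB1 (−0.70 ± 0.05), the kinetochore motor gene CENPE (−0.68 ± 0.05) and CDCA8 of the chromosomal passenger complex (−0.65 ± 0.04) were among the 6 with the smallest adjusted p, with limma adjusted p of 4.08e-05, 3.91e-05 and 2.24e-05. KIF11, the spindle motor gene, fell by 0.61, HMMR, a spindle-associated protein gene, by 0.60 and the checkpoint gene BUB1B by 0.55. Of the 25, 20 had a RefSeq window outside chr8, and these are not the same 20 as the genes that fell. The cell cycle homology region letters were found in 16 of them (80%, against 19.5% of all genes). They were in 14 of the 17 that fell and 2 of the 3 that did not. The E2F letters were found in 2 of the 20 (10%, against 3.99% of all genes). The choice of this list too was made with results known. Its genes were listed as bound by MuvB, which contacts the cell cycle homology region, so the share of those letters is not independent evidence.

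**Figure D5:**
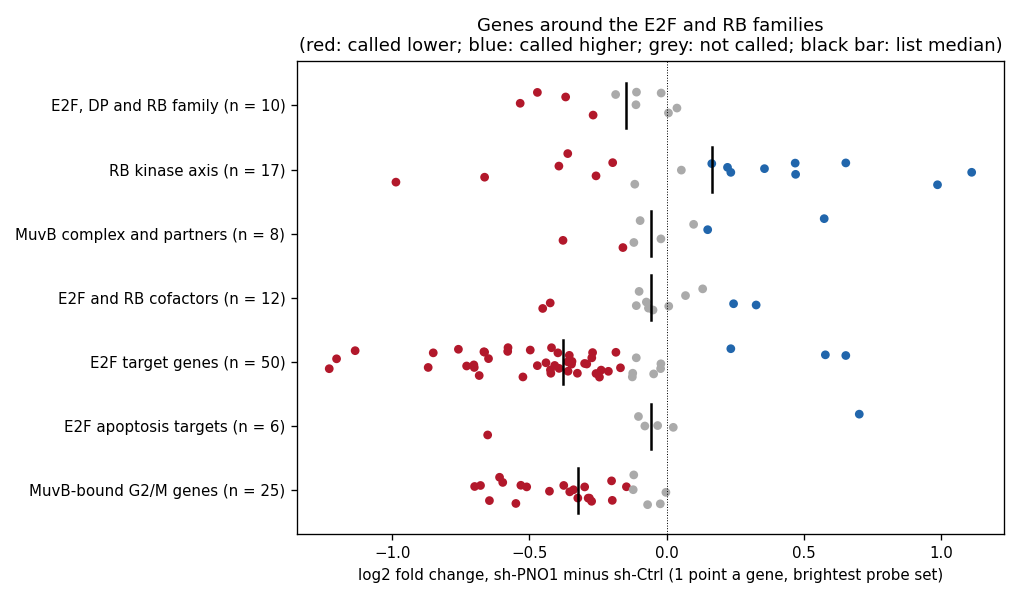
Log2 fold change of each gene (1 point a gene, brightest probe set) in the E2F, DP and RB family and in 6 lists around it, with list medians as black bars, called genes in red (lower) or blue (higher) and others in grey. The targets (41 of 50 lower) and mitotic genes (20 of 25 lower) lie mostly below 0, while the upstream regulators spread to both sides.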

How the data were processed

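Intensities of 49395 probe sets on 6 arrays were used as deposited. The authors summarised probes with RMA, per the submitters' processing notes, which give no version. The deposited intensity values are on a linear scale. For the background step, the software and the build, a statement was not given in the sources used here. RMA gives arrays similar distributions, so each change is relative to other genes. Of all probe sets 766 held equal values on all 3 sh-Ctrl arrays and 657 on all 3 sh-PNO1 arrays (0 and 0 of the 28 member probe sets). A value was repeated within a group at 12935 of all 49395 probe sets and at 3 of the 28 member probe sets. Such ties understate the spread.

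Here log2 was taken and limma 3.58.1 (R 4.3.3; lmFit, eBayes, no covariate) was fitted to all 49293 non-control probe sets, with Benjamini-Hochberg adjustment over all of them, and again to 18132 genes, each by its single-symbol probe set with the highest mean. Member probe sets have p-values of the first fit and list genes of the second. A probe set or gene was called at an adjusted p under 0.05. The platform table gave 1 symbol for 44988 probe sets, several for 1832 and none for 2473; all 28 member probe sets matched by gene identifier. Probe set suffixes _s_at and _x_at mark probes that can match several transcripts. Promoter windows came from RefSeq on GRCh38.p14, and those on chr8 were left out of every count. Groups and replicate numbers came from the sample titles. Of 15 array pairs 0 were identical. Same-numbered arrays did not deviate together (correlations −0.04, 0.10 and −0.03), so the numbers were not treated as pairs.

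The members and lists were chosen with earlier results of these data known. The rule for named genes took the 10 members and PNO1 at every probe set. In each list it took up to 6 called genes with the smallest adjusted p and each called gene against the list's majority. It also took the 3 genes nearest in pattern to the members with the highest and lowest log2 fold change at their brightest probe set. Alternatives were a replicate block, an eBayes prior with a mean-variance trend and robust fit, repeated quantile normalisation, arrays shifted to equal medians or equal means of 11 housekeeping genes, the dimmest 30% left out, an adjusted p under 0.01, averaged probe sets, _x_at and _s_at probe sets left out, and each array left out in turn. The fit was checked on simulated data with known changes.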

Additional observations from a re-analysis of the deposited data

How the results depend on the processing

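Of 132 recomputed values of the PNO1 check and the counts of calls, 129 kept their direction and stayed within 1.5 times the reported count, or on the same side of the threshold. The call rule alone gave 7 member probe sets at an adjusted p under 0.01. Without _x_at and _s_at probe sets 4 member probe sets were called instead of 9, since 20 of 28 remained and E2F3 has no other kind. With probe sets averaged 7 member genes were called, and at an adjusted p under 0.01 the MuvB list had 2 called genes. Signs reversed where values were near 0: E2F4 at −0.089 with probe sets averaged; RBL1 at −0.005 with quantile normalisation repeated, −0.011 with housekeeping means equal and −0.118 with probe sets averaged; RBL1 from −0.032 to 0.027 and RBL2 from −0.069 to 0.043 with 1 array left out. RBL1 turned negative without sh-Ctrl replicate 1 (−0.008) or sh-PNO1 replicate 2 (−0.032), and RBL2 positive without sh-Ctrl replicate 2 (0.011) or sh-PNO1 replicate 3 (0.043). TFDP1 passed with a mean-variance trend (0.0146), quantile normalisation (0.0492) and the dimmest 30% left out (0.0481), over a range of 0.0146 to 0.188; the cause was not tested. With 1 array left out, 8 to 10 member probe sets and 4 of 10 member genes were called. With the replicate block 12 member probe sets and 4 member genes were called, and the E2F targets gave 44; the numbers do not pair the arrays. Other settings gave 40 to 46 called E2F targets and 17 to 22 mitotic genes.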

Other observations

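Other family genes on the array, chosen after their values were seen, differed among themselves. E2F6, a repressor E2F that works without pocket proteins, was lower and called at all 5 of its probe sets. Its probe set 11753235_s_at went from 35.0 ± 0.304 to 26.5 ± 2.36 units (SD, n = 3), a log2 fold change of −0.40 ± 0.07 (limma adjusted p 0.00275). At the other 4 the fall was 0.25 to 0.39 on the log2 scale, with limma adjusted p of 0.00782 to 0.0262. The probe sets of TFDP2, a second DP partner gene, disagreed. At 11758929_at the arrays read 45.1, 47.3 and 41.7 in sh-Ctrl and 25.7, 30.2 and 30.8 in sh-PNO1 (−0.63 ± 0.08, limma adjusted p 0.000704). At 11748301_a_at they read 109.9, 104 and 121 against 125, 125 and 139.5 (0.22 ± 0.07, limma adjusted p 0.0505), so the groups were apart in opposite directions. TFDP3 lay near the bottom of the scale, with means of 5.54 and 5.42 units.

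The probe sets of some listed genes also gave different sizes of change; these genes were likewise picked after their values were seen. RRM2, an E2F target that encodes the small subunit of ribonucleotide reductase, read 1292, 1343 and 1319 in sh-Ctrl and 1024, 1088 and 973 in sh-PNO1 at 11754360_a_at (−0.36, limma adjusted p 0.00147). That probe set is not the one with the highest group mean in sh-Ctrl: 11758219_x_at read 1600.1, 1684 and 1594 against 219, 226 and 197 (−2.93, limma adjusted p 3.95e-07). RBBP4, a MuvB subunit, gave −0.10 at 11717239_s_at (limma adjusted p 0.28) and −0.83 at 11717240_at (limma adjusted p 8.88e-05), where the arrays read 141, 129 and 130 against 68.8, 75.8 and 81.1. BIRC5, of the mitotic list, has 12 probe sets, of which 2 were called lower.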
